A study of Mus musculus with 13 samples.

Results

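The clustered protocadherin genes are 57 of the 21853 protein-coding genes of the mouse annotation used here (GENCODE M21), and all lie on chromosome 18. They were chosen by symbol alone: 14 begin with Pcdha, 22 with Pcdhb and 21 with Pcdhg. GENCODE gives the symbol Pcdha11 to 2 of the genes, and the one that lies where RefSeq places Pcdha10 is called Pcdha10 here. Pcdhgb8, which GENCODE does not class as protein-coding, was left out. No measured value entered the choice.

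Clustered protocadherins are cadherin-like membrane proteins that give each neuron a surface identity, through which neurites recognise those of the same cell. Each Pcdha and Pcdhg gene has its own promoter and a large variable first exon, which is spliced to constant exons shared by its cluster, whereas each Pcdhb gene is a single exon. CTCF, a zinc-finger protein that binds a long DNA motif, and cohesin, the ring complex that contains RAD21 and SMC1, are known to bind many of these promoters and to bring them to distant enhancers in neurons. CTCF motifs of alternate Pcdha genes are known at the promoter and again within the first exon, and most promoters of the 3 clusters share a conserved sequence element that Pcdhac2, Pcdhb1, Pcdhgc4 and Pcdhgc5 are known to lack.

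ChIP-seq (sequencing of DNA that an antibody pulls down with its protein) was made from mouse limb tissue at stage E12.5, and 11 peak lists were analysed: 7 of CTCF, 3 of RAD21 and 1 of SMC1. The series set out to compare wild-type limbs with limbs that carry deletions at HoxD, a cluster of limb patterning genes on another chromosome. Wild-type CTCF and RAD21 came from whole forelimbs and hindlimbs of B6CBAF1 embryos, and wild-type CTCF, RAD21 and SMC1 from distal forelimb of CD1 embryos, with CTCF also from CD1 proximal forelimb. Homozygous embryos of 4 alleles on B6CBAF1 gave the other CTCF lists: delHoxd(8-13)d11lac, delHoxd(1-13)d9lac and delHoxd(attP-rel5)d9lac in whole forelimbs and hindlimbs, and delHoxd(8-13)rXII in forelimbs only. That last CTCF library was made by ChIPmentation from 4 embryos, so assay, tissue and genotype cannot be told apart in it. The delHoxd(8-13)rXII RAD21 library came from forelimbs and hindlimbs. Another 2 samples, of H3K27ac, were left aside.

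No group had more than 1 library, which leaves no replicate error, and no test between groups was made. Strain and limb part also change together between the whole-limb and the forelimb libraries. Read depth is unknown, and the lists differ in length: the CTCF lists hold from 36116 peaks (del8-13rXII) to 73682 (proximal forelimb), and the cohesin lists from 15927 (RAD21, del8-13rXII) to 33707 (RAD21, wild-type whole limbs). Strength is given as the authors' −log10 q of a summit, the point of highest signal in a peak, and as its percentile among the peaks of the same list. Since −log10 q grows with depth, its values in different lists are printed side by side as a record and are not ranked against each other, and strengths are compared within a list or by percentile. In tissue of mixed cells, binding in fewer cells and weaker binding per cell cannot be told apart. The labelled tissue was not checked against marker genes, because these peaks do not measure expression.

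A gene was counted as called in a list when a summit lay in its own first exon or within 1 kb of it. CTCF summits marked the 3 clusters to very different degrees in different lists. In wild-type whole limbs 27 of the 57 genes were called (47.4%), where 17.9% of all protein-coding genes were. Pcdhg led with 15 of 21 genes (71.4%, Wilson 95% interval 50.0 to 86.2), ahead of Pcdha with 5 of 14 (35.7%, 16.3 to 61.2) and Pcdhb with 7 of 22 (31.8%, 16.4 to 52.7). These intervals cover counting error only, and genes of a cluster are copies of one another, not replicates. In distal forelimb 50 genes were called (87.7%, against 25.0% of all genes), namely 13 Pcdha, 20 Pcdhb and 17 Pcdhg. In proximal forelimb 48 were called (84.2%, against 25.2%), with 13, 18 and 17 in the same order. The order of the clusters by share was not the same in the 3 wild-type lists: Pcdhg stood first in whole limbs and Pcdha in both forelimb lists, where the intervals of the clusters overlap.

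The allele lists spanned a wider range than the wild-type ones. The del8-13d11lac list called 51 members (89.5%, against 24.7% of all genes) and del8-13rXII called 18 (31.6%, against 13.3%). In del1-13d9lac 24 members were called (42.1%, against 17.6%), and in delattP-Rel5d9lac 32 (56.1%, against 18.5%). Members have long first exons, with medians of 2490 bp in Pcdha, 3714 bp in Pcdhb and 2607 bp in Pcdhg, which widens their windows. Among 394 other genes with a first exon of 2000 to 5000 bp, 29.2% were called in wild-type whole limbs, 38.3% in distal forelimb and 24.6% in del8-13rXII. The whole-limb intervals of Pcdha and Pcdhb include that 29.2%, and that of Pcdhg does not.

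**Figure D1:**
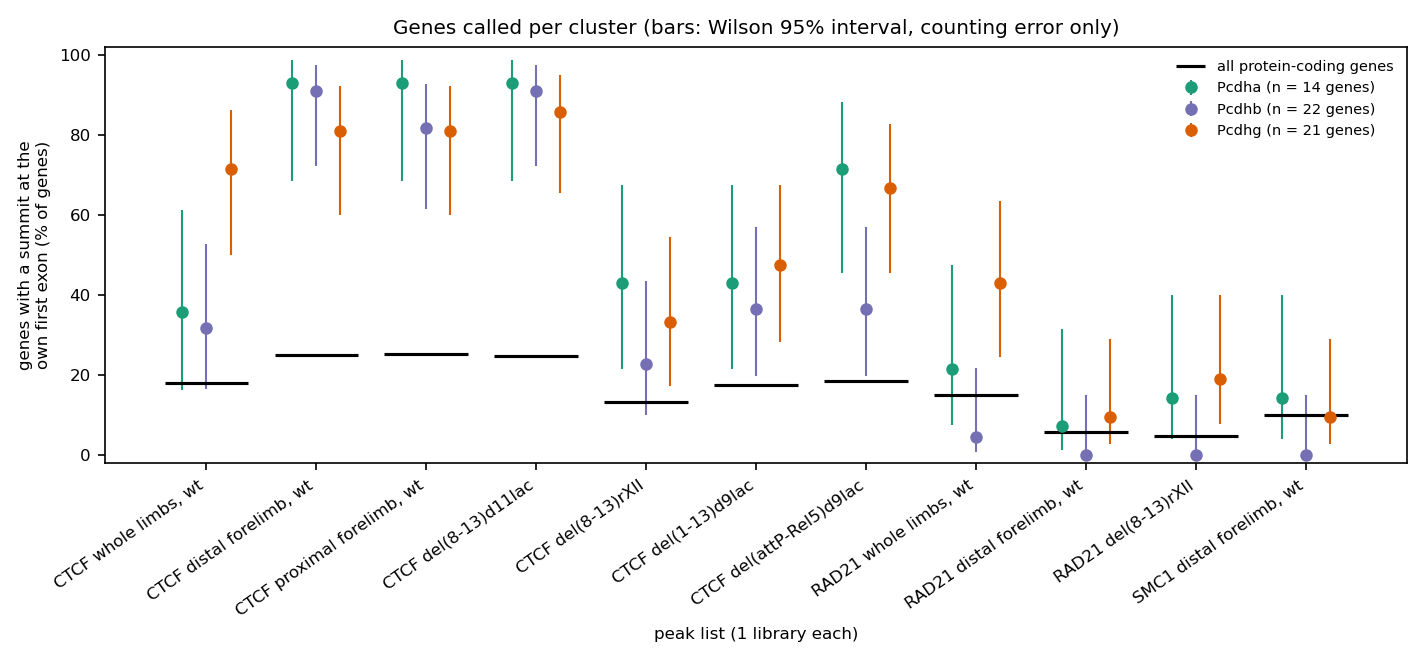
Share of the genes of each cluster with a summit in the first exon or within 1 kb (y axis, percent), for each of the 11 peak lists (x axis); points are the clusters, bars are Wilson 95% intervals for counting error, and the black line is the share of all protein-coding genes. Distal forelimb, proximal forelimb and del8-13d11lac show all 3 clusters far above the line, while in the cohesin lists most points lie near it.

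The calls rest on peaks of low to middle rank. In whole limbs the median percentile of a called gene's strongest summit was 31.6 in Pcdha (5 genes), 10.8 in Pcdhb (7 genes) and 34.2 in Pcdhg (15 genes). In distal forelimb these medians were 49.7, 41.2 and 55.2. When every list was shortened to its 15927 strongest peaks, whole limbs kept 1 Pcdha, no Pcdhb and 3 Pcdhg genes, while 7.46% of all genes were still called. At that length the Pcdha and Pcdhb shares were at or below that of all genes, so their excess in the full list lay in its weaker peaks. In distal forelimb the strongest Pcdhb and Pcdhg summits stood at percentiles 62.7 and 76.3. Both lay too low to be among the 15927 strongest of its 69495 peaks. No Pcdhb or Pcdhg gene was therefore kept there, and the distal forelimb excess of both clusters also lay in weaker peaks.

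Counted over all 7 CTCF lists, 53 of the 57 members were called at least once and 10 in every list. In single CTCF lists 13.3% to 25.2% of all protein-coding genes were called. The share of all genes over the 7 lists together is not given here, so these counts have no base rate. The 10 were Pcdha4, Pcdha7, Pcdha8, Pcdhac1, Pcdhb4, Pcdhga2, Pcdhga3, Pcdhgb6, Pcdhgb7 and Pcdhgc3. The 4 genes called in no CTCF list were Pcdhac2, Pcdhb1, Pcdhgc4 and Pcdhgc5. No RAD21 or SMC1 summit lay at these 4 genes either. They are the last gene of the Pcdha cluster, the first of the Pcdhb cluster and the last 2 of the Pcdhg cluster.

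**Figure D2:**
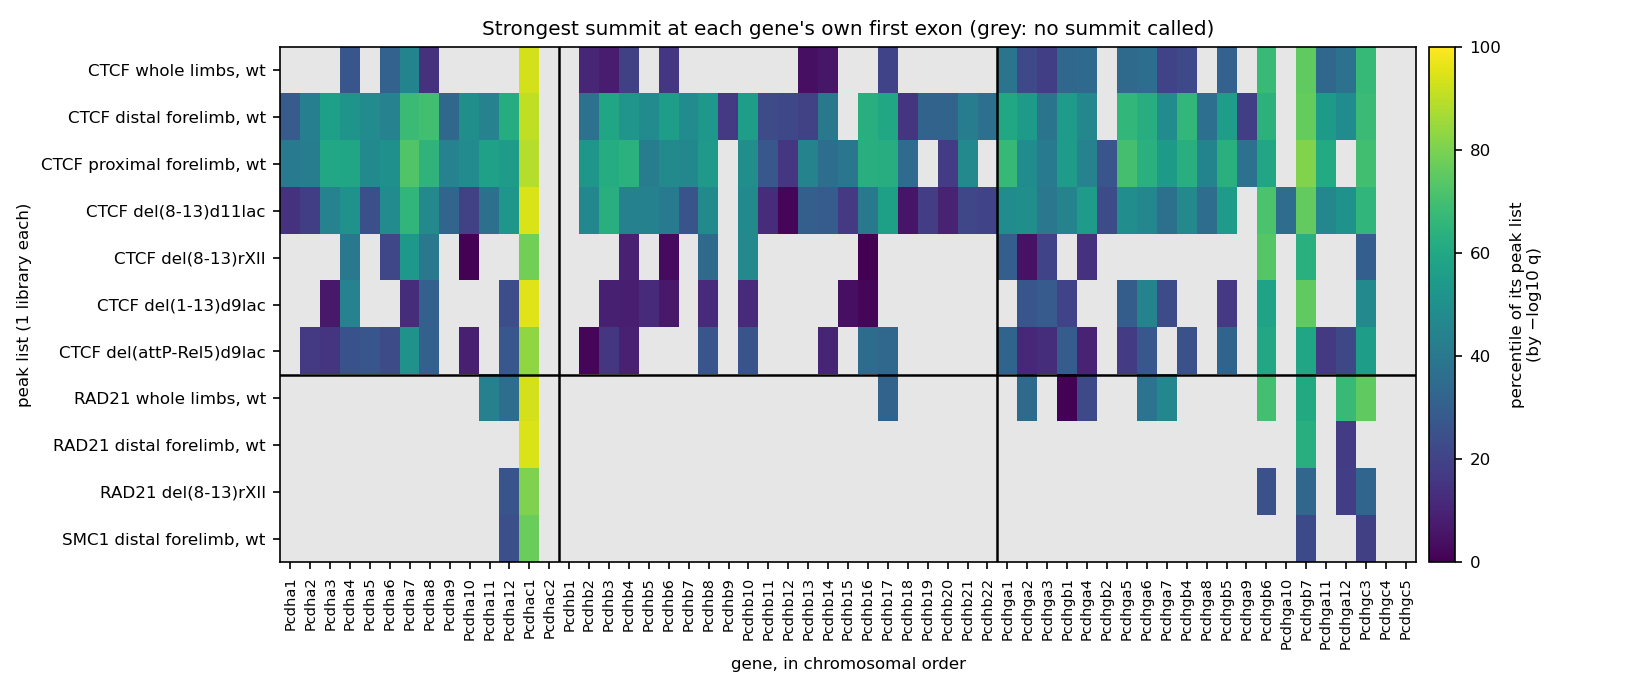
Percentile of the strongest first-exon summit within its list (colour, 0 to 100) for each of the 57 genes in genomic order (x axis) and each of the 11 lists (y axis). Grey means that no summit was called. Pcdhac1, Pcdhgb6, Pcdhgb7 and Pcdhgc3 are filled in all 7 CTCF lists, and the columns of Pcdhac2, Pcdhb1, Pcdhgc4 and Pcdhgc5 are grey throughout.

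CTCF motif matches were scored with a 19-bp matrix learned from the 2000 strongest whole-limb summits of other chromosomes, shown here because every statement on motifs rests on it. Its letters, with N where no base reached 50%, read as follows.

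CTCF matrix consensus: NNGCCACNAGGGGGCGCNN

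Both strands were searched, and a match within 50 bp of a summit passed at a score that 5% of control windows 2000 bp away reached. Of all whole-limb CTCF summits 77.2% held such a match, divided evenly between the strands. A match is a description of letters and not a measured binding site.

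Matches were also counted in all genes, called or not, in 2 regions of equal length that were chosen after the summit positions had been seen. In the 300 bp before the start codon a match was found in 11 of 14 Pcdha genes (78.6%), 21 of 22 Pcdhb genes (95.5%) and 3 of 21 Pcdhg genes (14.3%), beside 19.9% of all protein-coding genes. From 300 to 600 bp after the start codon, inside the members' first exons, 13 of 14 Pcdha genes had one (92.9%). Only 1 of 22 Pcdhb and 1 of 21 Pcdhg genes did, beside 14.6% of all genes. The stretch was taken along the genome, so in other genes it can fall outside the first exon. Every upstream match in the 3 clusters lay on the coding strand, whereas over all genes 2293 lay on the coding strand and 2047 on the other. At the stricter score that 1% of control windows reach, the upstream counts were 4, 8 and 0 of these genes, beside 5.4% of all genes. The 3 clusters thus differ in letters: Pcdha genes carry matches before and after the start codon, Pcdhb genes before it, and most Pcdhg genes at neither place. Cluster members are related copies, so their matches are not independent of each other.

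The alternate genes Pcdha1 to Pcdha12, which each encode an extracellular domain with its own recognition surface, all held an exonic match on the coding strand. In 10 of the 12 its centre lay 462 or 465 bp after the start codon, and in Pcdha3 and Pcdha9 at 453 and 552 bp. Scores ran from 7.90 bits in Pcdha2 to 21.2 bits in Pcdha1. In distal forelimb, whose summit positions guided the choice of these regions, 10 Pcdha genes had a summit before the start codon, at −229 to −112 bp with a median of −176.5 bp, and 10 had one after it, at 407 to 492 bp with a median of 458.5 bp. Both summits were called in 7 genes. Of the 20 distal forelimb summits at Pcdha genes, 17 had a match within 50 bp on the coding strand and none on the other.

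Whole limbs showed the exonic site more often than the promoter site at these genes. Pcdha4, Pcdha6, Pcdha7 and Pcdha8 had an exonic summit there, at 471 to 496 bp, and all 4 summits had a coding-strand match. Pcdha6 alone among the alternate genes also had an upstream summit. The 8 Pcdha genes not called in whole limbs but called in both forelimb lists were Pcdha1, Pcdha2, Pcdha3, Pcdha5, Pcdha9, Pcdha10, Pcdha11 and Pcdha12.

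Pcdha7 was the strongest of the alternate Pcdha genes in whole limbs. Its strongest CTCF summit had a −log10 q of 14.3 in whole limbs, 61.2 in distal and 69.0 in proximal forelimb, 64.6 in del8-13d11lac, 7.70 in del8-13rXII, 4.24 in del1-13d9lac and 23.6 in delattP-Rel5d9lac. The whole-limb summit stood at percentile 45.2 of its list, close to the middle. Pcdha8 had 4.52 in whole limbs, 67.2 in distal and 44.8 in proximal forelimb, 26.9 in del8-13d11lac, 5.55 in del8-13rXII, 8.17 in del1-13d9lac and 11.03 in delattP-Rel5d9lac. Pcdha4 gave 7.16, 25.7, 31.0, 32.8, 5.55, 13.3 and 8.80 in the same order of lists. These 3 genes were called in every CTCF list although none had a cohesin summit. Pcdha6 had 8.67 in whole limbs, 17.7 in distal and 19.6 in proximal forelimb, 28.5 in del8-13d11lac, 3.56 in del8-13rXII and 8.15 in delattP-Rel5d9lac, and was absent from del1-13d9lac.

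The other alternate Pcdha genes were called in fewer lists. Pcdha1, the first gene of the cluster, was called only in distal forelimb (8.74), proximal forelimb (12.4) and del8-13d11lac (6.70). Pcdha9 was called in those same 3 lists, with 10.5, 14.5 and 14.0. These values lie in the lower part of their lists, and Pcdha1 stood at percentile 28.8 in distal forelimb. Pcdha2 was called at 17.0 in distal forelimb, 13.2 in proximal forelimb, 7.76 in del8-13d11lac and 6.45 in delattP-Rel5d9lac. Pcdha5 had 21.7, 17.1, 9.78 and 9.30 in the same 4 lists. Pcdha3 and Pcdha10 each appeared in 5 CTCF lists, Pcdha3 with 33.0 in distal and 32.5 in proximal forelimb and Pcdha10 with 23.4 and 17.9. None of these 6 genes had a cohesin summit.

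Pcdha11 and Pcdha12 were the only alternate Pcdha genes with cohesin. Pcdha12 had CTCF at 44.7 in distal and 25.2 in proximal forelimb, 35.1 in del8-13d11lac, 6.36 in del1-13d9lac and 9.43 in delattP-Rel5d9lac, and none in whole limbs or del8-13rXII. RAD21 was nevertheless called at Pcdha12 in whole limbs and in del8-13rXII, in each list with a summit before and one after the start codon. The stronger was the exonic summit in whole limbs (7.42) and the upstream summit in del8-13rXII (7.67, beside 3.13 for the exonic one). SMC1 was called in distal forelimb at an exonic summit (5.81). Pcdha11 had CTCF at 18.1 in distal forelimb, 28.6 in proximal forelimb and 17.0 in del8-13d11lac, with RAD21 in whole limbs only (10.2). In whole limbs RAD21 was thus listed at both genes without a CTCF peak in the list of the same tissue.

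Pcdhac1, a C-type gene that lies between the alternate Pcdha genes and Pcdhac2, carried the strongest first-exon CTCF peak of all 57 members in every CTCF list. Its −log10 q was 81.8 in whole limbs, 166.5 in distal and 150.0 in proximal forelimb, 192.4 in del8-13d11lac, 13.5 in del8-13rXII, 79.5 in del1-13d9lac and 69.4 in delattP-Rel5d9lac. Within the lists it stood at percentile 78.6 in del8-13rXII, 83.5 in delattP-Rel5d9lac, and 88.9 or higher in the other 5. Cohesin was called there in all 4 lists, with RAD21 at 104.1 in whole limbs, 57.2 in distal forelimb and 31.6 in del8-13rXII, and SMC1 at 22.3. The CTCF summit lay upstream of the start codon, at −173 bp in whole limbs and −189 bp in distal forelimb, where a match of 11.6 bits was centred at −189 bp. No exonic summit was called at Pcdhac1, unlike at most of the alternate genes.

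**Figure D3:**
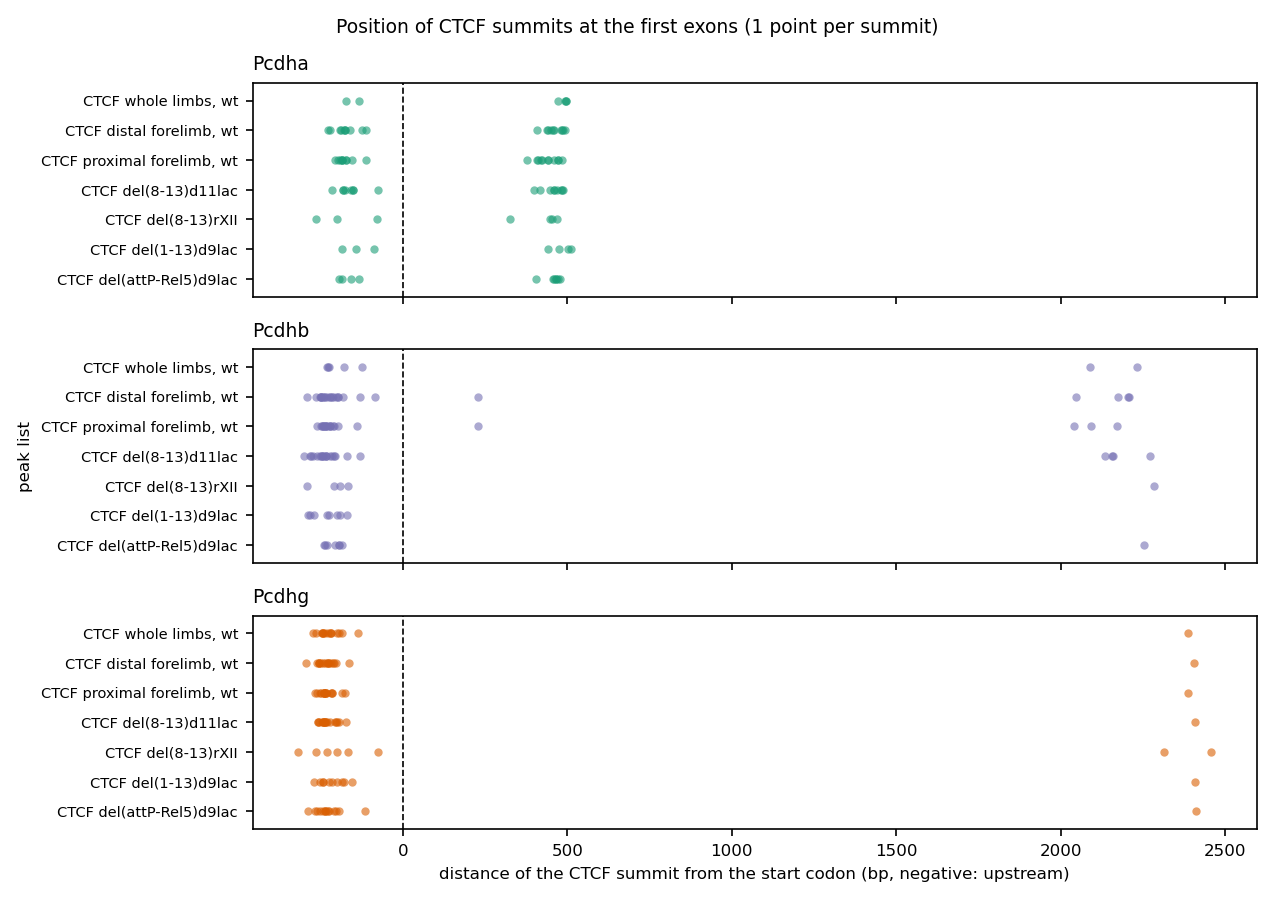
Distance of each first-exon CTCF summit from the start codon (x axis, bp, cut so that the few Pcdhb summits beyond the exon's first part, at 4463 and 7054 bp among others, are not shown) for the genes of each cluster in one panel each. Pcdha summits form a pair of bands before and after the start codon, whereas Pcdhb and Pcdhg summits form a single upstream band with a few genes beyond 2000 bp.

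Pcdhb genes, single-exon protocadherins with no shared constant exon, were the cluster whose calls depended most on the list. Their 7 whole-limb summits were all weak, from 2.61 to 5.64, that is at percentiles 4.12 to 20.3. In distal forelimb 20 genes had values from 5.02 to 45.9, and each of the 20 had a summit before the start codon, at −291 to −86 bp with a median of −226.5 bp. Of the 17 upstream summits that lay in no neighbour's window as well, 16 had a coding-strand match, 1 had none, and none had a match on the opposite strand. The 7 summits after the start codon, 2 of which are the promoter sites of the next gene, were mixed, with 1 coding-strand match, 3 opposite-strand matches and 3 without a match. The upstream site was therefore the shared feature of the cluster in this list.

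Pcdhb4 was the only Pcdhb gene called in all 7 CTCF lists. It had 5.50 in whole limbs, 26.2 in distal and 41.2 in proximal forelimb, 23.3 in del8-13d11lac, 2.47 in del8-13rXII, 3.50 in del1-13d9lac and 4.73 in delattP-Rel5d9lac. Pcdhb17 was the strongest in whole limbs (5.64) and had 39.7 in distal forelimb, 38.1 in proximal forelimb, 42.4 in del8-13d11lac and 12.0 in delattP-Rel5d9lac, with no summit in del8-13rXII or del1-13d9lac. It was also the only Pcdhb gene with cohesin, a RAD21 summit of 6.27 in whole limbs at −221 bp. Pcdhb6, the third by whole-limb strength, had 4.67 there, 31.9 in distal forelimb, 17.1 in proximal forelimb and 20.6 in del8-13d11lac.

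The weakest of the called Pcdhb genes in whole limbs were Pcdhb13 (2.61), Pcdhb14 (2.88) and Pcdhb3 (3.13), followed by Pcdhb2 (3.75). Pcdhb3 had 36.8 in distal forelimb, 37.5 in proximal forelimb and 56.2 in del8-13d11lac. Its whole-limb summit lay 2231 bp after the start codon, while in the forelimb lists its strongest summit lay upstream. Pcdhb14, the member with the longest first exon (8695 bp), had its strongest summit beyond 2000 bp after the start codon, at 2090 bp in whole limbs. None of the 7 Pcdhb genes passed a −log10 q of at least 10 in whole limbs.

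Some Pcdhb genes that were missing from the whole-limb list ranked above the middle of the distal forelimb list. Pcdhb16 had the highest distal forelimb value of the cluster, 45.9 (percentile 62.7), with 39.1 in proximal forelimb, 19.9 in del8-13d11lac, 1.31 in del8-13rXII, 2.03 in del1-13d9lac and 12.8 in delattP-Rel5d9lac. Pcdhb8 and Pcdhb10 were likewise called in every CTCF list except wild-type whole limbs, at 27.7 and 31.4 in distal forelimb (percentiles 53.2 and 55.7). In del8-13rXII Pcdhb8 was called at its upstream site (4.83), but the only Pcdhb10 summit there (6.58) lay 2284 bp after the start codon. In distal forelimb the strongest Pcdhb10 summit lay upstream, at −239 bp. Pcdhb10 also had a summit after the start codon in distal forelimb and in del8-13d11lac, besides its upstream one. Pcdhb5 was called in distal forelimb (21.6), proximal forelimb (13.2), del8-13d11lac (23.0) and del1-13d9lac (4.12).

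Pcdhb7, Pcdhb11, Pcdhb12, Pcdhb18, Pcdhb20 and Pcdhb21 were each called in the 2 forelimb lists and del8-13d11lac only. Their distal forelimb values were 21.8, 6.89, 6.29, 5.02, 9.75 and 16.1 in that order. Pcdhb15 was called in proximal forelimb (11.4), del8-13d11lac (7.01) and del1-13d9lac (2.76) but not in distal forelimb. Pcdhb19 (9.75) and Pcdhb22, the last gene of the cluster (12.3), were called in distal forelimb and del8-13d11lac, and Pcdhb9 (5.23) in distal forelimb alone. The distal forelimb value of Pcdhb19 comes from a summit at the promoter of its neighbour Pcdhb20, which its long exon brings into its window. Its own upstream summit, at −220 bp, had 6.89. Windows overlapped at 9 neighbouring pairs of genes, and 12 pairings of a summit with a gene were shared in this way.

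Pcdhg genes, whose variable exons of types A, B and C join 3 constant exons, were the cluster called most often in whole limbs. There 9 of 12 Pcdhga genes and 5 of 6 Pcdhgb genes were called, together with Pcdhgc3. All 15 had a summit before the start codon, at −273 to −135 bp with a median of −227 bp, and only Pcdhgc3 had one after it. Despite this, 15 of the 16 summits had no motif match within 50 bp and 1 had a coding-strand match. In distal forelimb the count without a match was 15 of 18, against 3 of 20 in Pcdha. In that list 17 of 21 Pcdhg genes thus held a CTCF summit, mostly at letters that this matrix scores low. A low score says only that the letters searched for were not in the window.

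Pcdhgb7 had the strongest upstream CTCF site of the cluster in whole limbs and was called in all 11 lists. Its CTCF −log10 q was 42.4 in whole limbs, 91.9 in distal and 106.1 in proximal forelimb, 99.3 in del8-13d11lac, 9.56 in del8-13rXII, 37.8 in del1-13d9lac and 30.9 in delattP-Rel5d9lac. Cohesin there was RAD21 at 22.3 in whole limbs, 20.0 in distal forelimb and 9.19 in del8-13rXII, and SMC1 at 5.50. The whole-limb CTCF summit stood at percentile 75.7 of its list. With Pcdhac1 it was 1 of 2 members called in all 4 cohesin lists.

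Pcdhgb6, the next upstream site by whole-limb strength, had CTCF at 32.6 in whole limbs, 50.1 in distal and 31.7 in proximal forelimb, 82.7 in del8-13d11lac, 12.1 in del8-13rXII, 21.3 in del1-13d9lac and 32.4 in delattP-Rel5d9lac. RAD21 was called there at 34.97 in whole limbs and 7.40 in del8-13rXII. Between these genes, Pcdhga10 was called in del8-13d11lac alone (16.03). Both neighbours of Pcdhga10 were thus among the strongest members in whole limbs while Pcdhga10 itself was not called there.

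Pcdhgc3, a C-type gene, had sites at both ends of its variable exon. The strongest CTCF summit lay 2386 to 2458 bp after the start codon in every CTCF list, in whole limbs within a peak at chr18:37808756-37809100 (mm10), near the end of the exon. Its −log10 q was 31.4 in whole limbs, 61.3 in distal and 57.6 in proximal forelimb, 64.3 in del8-13d11lac, 4.38 in del8-13rXII, 14.5 in del1-13d9lac and 27.7 in delattP-Rel5d9lac. A weaker CTCF peak of 10.5 lay at the promoter in whole limbs, at chr18:37806203-37806462. Cohesin was placed the other way: the strongest RAD21 and SMC1 summits lay upstream, with RAD21 at 45.2 in whole limbs and 9.11 in del8-13rXII and SMC1 at 4.97. The strongest CTCF and the strongest cohesin summit of Pcdhgc3 were therefore not at the same place.

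The remaining called Pcdhga and Pcdhgb genes had whole-limb values in a narrow range. Pcdhga3 (5.36), Pcdhga7 (5.64) and Pcdhga2 (5.98) were the weakest, with Pcdhgb4 also at 5.98, and Pcdhga1, the first gene of the cluster, reached 10.96. In distal forelimb Pcdhga5 (55.7) and Pcdhgb4 (55.3) stood well above Pcdhga3 (13.3). Pcdhga4, Pcdhga6, Pcdhga11, Pcdhgb1 and Pcdhgb5 had 9.53, 10.2, 9.33, 9.37 and 8.64 in whole limbs and between 19.8 and 45.3 in distal forelimb. In whole limbs most Pcdhg promoters were thus close to each other in strength, the upstream site of Pcdhgc3 (10.5) among them, and those of Pcdhgb6 and Pcdhgb7 stood above.

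A few Pcdhg genes were called in some lists only. Pcdhga8 was absent from whole limbs and called at 12.2 in distal forelimb, 15.1 in proximal forelimb and 15.9 in del8-13d11lac. Pcdhga9 appeared in the 2 forelimb lists only, at 5.63 and 10.7, and Pcdhgb2 in proximal forelimb (6.51) and del8-13d11lac (9.14). Pcdhga12 had CTCF at 10.8 in whole limbs, 22.1 in distal forelimb, 32.8 in del8-13d11lac and 7.84 in delattP-Rel5d9lac, with none in proximal forelimb. RAD21 was called at Pcdhga12 with 31.0 in whole limbs, 6.02 in distal forelimb and 6.21 in del8-13rXII. In whole limbs RAD21 stood at percentile 67.5 of its list there and CTCF at 37.8, whereas in distal forelimb the percentiles were 17.9 and 48.6.

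The 4 members without any CTCF call had no motif match just before the start codon. This did not set them apart, since Pcdha10, Pcdha12 and most called Pcdhg genes had none there either. Among these, Pcdhga2, Pcdhgb6, Pcdhgb7 and Pcdhgc3 were called in every CTCF list. The best match in the whole window was 11.3 bits for Pcdhac2, at 1792 bp, and 9.66 bits for Pcdhb1, at 440 bp, both on the opposite strand. Pcdhgc4 had 9.45 bits at 1758 bp and Pcdhgc5 11.1 bits at 810 bp, on the coding strand. Pcdhb1 was the only Pcdhb gene without a match in the 300 bp before the start codon.

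Cohesin was called at 13 members over the 4 lists: Pcdha11, Pcdha12, Pcdhac1, Pcdhb17, Pcdhga2, Pcdhgb1, Pcdhga4, Pcdhga6, Pcdhga7, Pcdhgb6, Pcdhgb7, Pcdhga12 and Pcdhgc3. The share of all protein-coding genes called in any of the 4 lists is not given here. Each of the 13 was called in at least 1 CTCF list. Over the whole genome, 96.6% of RAD21 and 94.0% of SMC1 peaks of distal forelimb overlapped a CTCF peak of that tissue. In whole limbs 66.4% of all RAD21 peaks did. RAD21 in whole limbs marked 3 Pcdha, 1 Pcdhb and 9 Pcdhg genes, together 22.8% of the members beside 14.9% of all genes. In distal forelimb RAD21 marked 3 members (5.26%, beside 5.74% of all genes) and SMC1 4 (7.02%, beside 9.99%). RAD21 in del8-13rXII marked 6 (10.5%, beside 4.76%). Among the 394 genes with first exons of like length the shares were 25.4% for RAD21 in whole limbs, 11.9% for RAD21 and 17.5% for SMC1 in distal forelimb, and 12.2% for RAD21 in del8-13rXII. Pooled over the 3 clusters, each of the 4 member shares lay below that of the length-matched genes, but the clusters differed. In whole limbs RAD21 was called at 42.9% of Pcdhg genes (24.5 to 63.5), an interval that includes the 25.4%. The shares were 21.4% in Pcdha and 4.55% in Pcdhb (0.807 to 21.8). In del8-13rXII Pcdha (2 of 14 genes) and Pcdhg (4 of 21) lay above the 12.2%, within counting error, and Pcdhb had no call. The pooled gap was clearest in distal forelimb, where each cluster lay below and CTCF was called at 50 members. The distal forelimb RAD21 list is shorter than that of whole limbs (16498 peaks, beside 33707), and what a longer list would hold was not tested. Per the labels, chromatin was fixed for 10 min for CTCF, 25 min for SMC1 and 10 or 25 min for RAD21. They do not give the time of each RAD21 library, and give none for the del8-13rXII CTCF library. Fixation therefore cannot be told apart from the protein or the tissue in these comparisons.

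Per site, CTCF and RAD21 met more often in Pcdhg than in the other clusters. Of 16 whole-limb CTCF sites in Pcdhg windows 9 overlapped RAD21 (56.2%, 33.2 to 76.9), where all CTCF peaks of the same strengths would give 5.94. Of all whole-limb CTCF peaks 51.5% overlapped RAD21, a share close to that of Pcdhg and inside its interval. Pcdha had 1 of 6 and Pcdhb 1 of 7, where strength gives 2.24 and 1.08. Read from the other side, all 9 RAD21 peaks of the Pcdhg windows overlapped CTCF, but 1 of 4 in Pcdha did. The numbers are small, and each count differed from the number given by strength by about 3 sites or less. In distal forelimb 3 of the 63 CTCF sites in first-exon windows overlapped RAD21 and 4 overlapped SMC1, where strength gives 5.34 and 9.09. These are 4.76% and 6.35%, beside 22.8% and 31.0% of all distal forelimb CTCF peaks.

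Distal and proximal forelimb held largely the same sites. Of 87 distal CTCF sites in the interval, which runs 200 kb past the clusters on each side (chr18:36730184-38041873, mm10), 79 overlapped a proximal peak (90.8%), beside 82.6% of all distal peaks. They were matched by 76 of the 86 proximal sites (88.4%, beside 77.8%). All 20 Pcdha sites and 17 of 18 Pcdhg sites of distal forelimb were shared, and 19 of 25 in Pcdhb. By gene, 46 members were called in both, Pcdhb9, Pcdhb19, Pcdhb22 and Pcdhga12 in distal forelimb only, and Pcdhb15 and Pcdhgb2 in proximal forelimb only. Of all protein-coding genes 25.0% were called in distal and 25.2% in proximal forelimb. The share of all genes called in both is not given here, so the gene counts have no base rate. Of the 4 called in distal forelimb only, Pcdhga12 had the highest value (22.1) and the others ranged from 5.23 to 12.3.

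HoxD lies on another chromosome, so the alleles delete none of the members' own DNA, and the lists differed mainly in how many weak members they held. Of the 51 whole-limb wild-type CTCF sites of the interval, del8-13d11lac kept 50 (98.0%, beside 91.8% of all peaks), delattP-Rel5d9lac 46 (90.2%, beside 82.8%), del1-13d9lac 38 (74.5%, beside 80.0%) and del8-13rXII 34 (66.7%, beside 70.3%). As shares of the allele lists these are 50 of 82 sites (61.0%), 46 of 57 (80.7%), 38 of 47 (80.9%) and 34 of 40 (85.0%), each slightly below the share over all peaks of that list (64.9%, 84.0%, 83.8% and 87.0%). Peaks of the same strengths across the genome would give 47.6, 41.9, 40.0 and 33.7 kept sites. All 16 sites of the flanks were kept in each allele, so the missing sites lay within the span of the clusters.

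The strongest wild-type sites missing from del8-13rXII were all at Pcdhg promoters: Pcdhga12 (10.8), Pcdhgc3 (10.5), Pcdhga6 (10.2), Pcdhga5 (9.63) and Pcdhgb1 (9.37). Missing from del1-13d9lac were Pcdhga1 (10.96), Pcdhga12 (10.8), Pcdhga4 (9.53), Pcdhga11 (9.33) and the upstream site of Pcdha6 (8.67). From delattP-Rel5d9lac the strongest absent sites were weaker, at Pcdhga7 (5.64), Pcdhb6 (4.67), Pcdhb3 (3.13) and Pcdhb13 (2.61), with a site of 3.75 after Pcdhac2. That last site, chr18:37159258-37159450, was the only one absent from del8-13d11lac. Each of these sites lay below the median −log10 q of the wild-type list (17.0). Sites without any wild-type CTCF peak were 1 of 82 in del8-13d11lac (1.22%, beside 7.08% of all its peaks), the promoter of Pcdhga10, and 1 of 57 in delattP-Rel5d9lac (1.75%, beside 2.94%), near Slc25a2 (3.66). There were 0 of 47 in del1-13d9lac and 0 of 40 in del8-13rXII, beside 5.19% and 4.62% of all peaks.

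**Figure D4:**
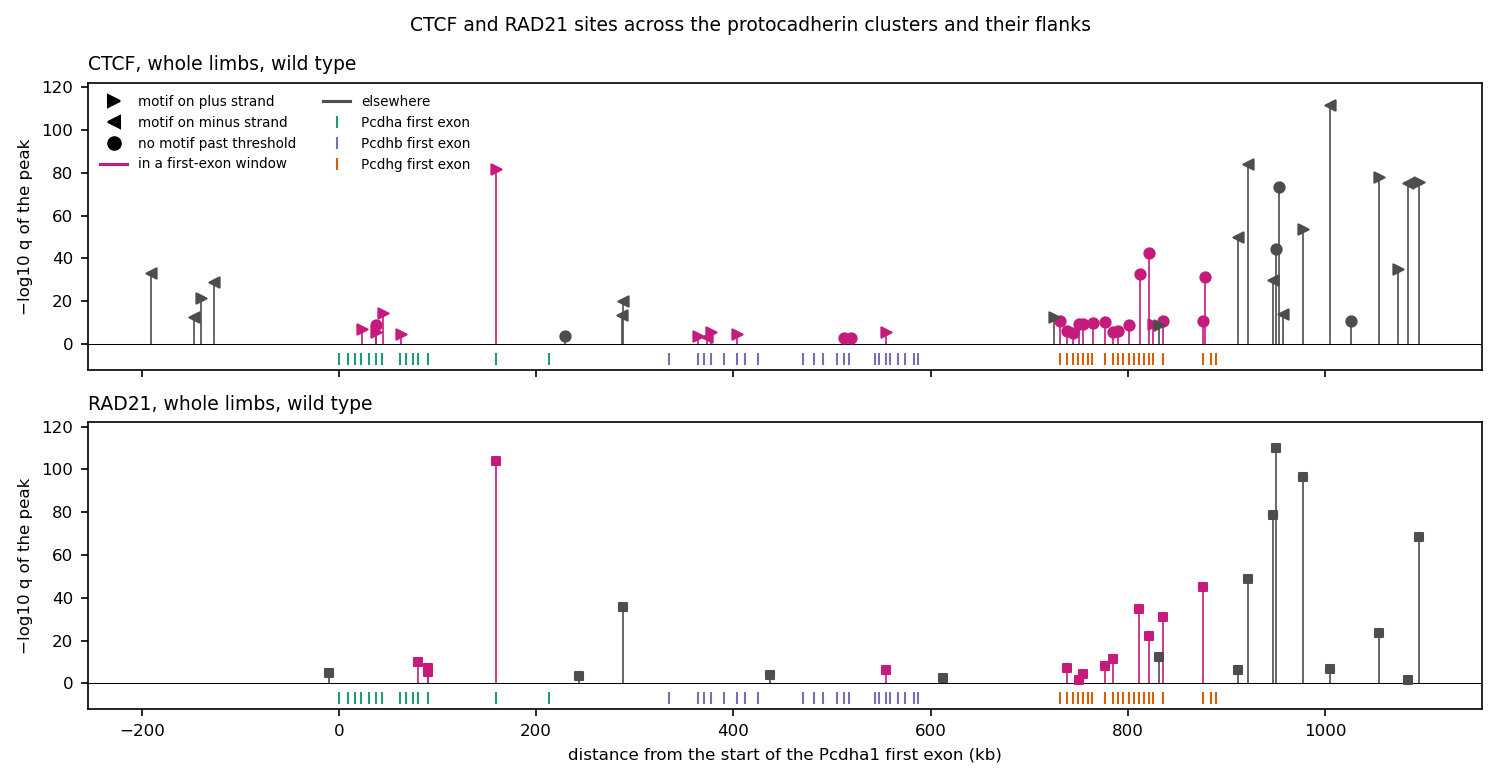
Strength (−log10 q) of whole-limb CTCF and RAD21 peaks (y axis) against distance from the start of the first exon of Pcdha1 in kb (x axis), over the 3 clusters and 200 kb on each side, with the strand of the motif match marked. At first exons CTCF is highest at Pcdhac1 (81.8) and Pcdhgb7 (42.4), while the side beyond Pcdhg holds sites up to 111.6.

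Across the interval the sites of whole limbs were spread unevenly. The Pcdhg variable exons held 9.98 CTCF peaks per 100 kb, beside 2.77 in the Pcdha variable exons and 2.70 over the Pcdhb genes. These stretches hold 21 genes in 160.34 kb, 14 in 216.35 kb and 22 in 259.54 kb in that order. Peak densities were not corrected for this spacing of the genes. In distal forelimb the densities came closer together, at 11.8, 8.78 and 9.63. The flank beyond Pcdhg held 12 whole-limb peaks with a median −log10 q of 63.5, and the flank before Pcdha 4 peaks with a median of 25.4. Of the 51 peaks, 29 lay in first-exon windows of members.

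The 10 strongest whole-limb CTCF sites outside the first-exon windows all lay beyond the last Pcdhg variable exon. The highest, 111.6 at chr18:37935429-37935897, was 286 bp from the start of Diaph1, a formin gene that regulates actin, and had an opposite-strand match. At the end of the Pcdhg constant exons, chr18:37841287-37841664 had 49.9 and a match of 22.7 bits on the opposite strand, 21957 bp after the start of Pcdhgc5. The other 8 lay farther out, 4 of them in Diaph1, with values from 34.9 to 84.3. Of the 10, 4 had matches on the strand of the protocadherin genes, 4 on the other strand and 2 none.

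Between Pcdha and Pcdhb, a stretch in which a known enhancer of the Pcdha genes lies, whole limbs held only 2 CTCF sites. They were chr18:37217293-37217625 (13.4) and chr18:37218284-37218562 (20.0), both with an opposite-strand match. Both were listed in all 7 CTCF lists and overlapped SMC1, and the second also overlapped RAD21 in all 3 RAD21 lists. The enhancer's own coordinates were not used here. The matches of this pair lay on the strand opposite to those found within 50 bp of Pcdha first-exon summits in whole limbs and distal forelimb, which were all on the coding strand.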

How the data were processed

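ChIP-seq peak lists were used for 11 of the 13 samples, 1 per sample. Per the submitters' processing notes, cutadapt, Bowtie2 and MACS2 were applied, with build mm10, and no versions are given there. In each deposited list the score is the −log10 q scaled to a whole number. The fold enrichment, a ratio of signal to background at the summit, was computed by the authors. The authors also deposited, for every summit, a −log10 q (used here as strength) and a −log10 p, and no summit has a q above 0.05. Read depth is not given in the sources used here.

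Summits of 1 region were merged into 1 peak. Genes and first exons came from GENCODE M21 (first exon of the coding transcript with the longest coding sequence), and coordinates are 1-based. A gene was called when a summit lay in its first exon or within 1 kb. Sites shared at least 1 bp. Counts by strength used 20 equally filled bins of −log10 q. The motif code was tested on simulated data. Python 3.11.15 with numpy 2.4.6, pandas 2.3.3, scipy 1.17.1, numba 0.67.0 and matplotlib 3.10.9 was used.

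Genes were named by a rule: those without a whole-limb CTCF call, the 3 strongest and 3 weakest of each cluster, first and last genes, C types, genes whose wild-type calls differ, and genes with cohesin. Other members were named to show values. The members, lists and the motif regions around the start codon were chosen with earlier results of these data known.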

Additional observations from a re-analysis of the deposited data

How the results depend on the processing

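No paired analysis was possible because each group had 1 library. Read depth is unknown and most members' summits rank low in their lists, so a missing call does not show that a site was unbound.

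At a −log10 q of at least 10, CTCF in whole limbs called 2 Pcdha, 0 Pcdhb and 6 Pcdhg genes, and RAD21 0 Pcdhb and 5 Pcdhg genes. In Pcdha RAD21 passed that value at Pcdha11 (10.2) and Pcdhac1 (104.1). With lists of 15927 peaks each, CTCF called 1 Pcdha, 0 Pcdhb and 3 Pcdhg genes, and RAD21 1, 0 and 4. Except for CTCF in equal lists, given above, the share of all genes under these settings is not given here. The other counts therefore have no base rate. Among the wild-type sites of the interval kept in an allele, del8-13d11lac kept 100% (29 of 29) at the higher −log10 q and 76.5% (13 of 17) in equal lists, delattP-Rel5d9lac 70.6% (12 of 17) in equal lists, and del8-13rXII 41.4% (12 of 29) at the higher −log10 q and 52.9% (27 of 51) when 50% of a site had to be covered. Distal and proximal forelimb shared 100% (13 of 13) in equal lists. Coding-strand matches at whole-limb summits fell to 1 in Pcdhb and 0 in Pcdhg at the 1% score, and rose to 3 in Pcdhg within 100 bp. Fewer peaks or sites enter the stricter settings by construction; the cause of the other shifts was not tested. Of 66 values under an alternative for these results, 46 stayed within 1.5 times the reported count or within its interval.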

Other observations

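Outside the clusters, 12 other protocadherin genes were read in the same way. CTCF was called at 6 of the 12 in whole limbs and at 7 in distal forelimb, and RAD21 at 6 in whole limbs. Pcdh1 (137.1, percentile 99.4 in whole limbs) and Pcdh8 (53.8, percentile 82.9) were called in all 7 CTCF and all 4 cohesin lists, as Pcdhac1 and Pcdhgb7 were. Among other tandem gene arrays, 28 of 54 Hist1 histone genes were called for CTCF in whole limbs and 39 in distal forelimb, and of 132 olfactory receptor genes of chromosome 9, 1 in whole limbs and 0 in distal forelimb.

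Repeated sequence differed between the clusters. Of the 50-base words within 500 bp of the transcription start, a median of 14.4% recurred for Pcdha genes, and 0% for Pcdhb and Pcdhg genes. Its part in the calls was not tested.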
